A study of Homo sapiens and Mus musculus with 18 samples.

Results

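The transcripts of 10 genes of the bone morphogenetic protein (BMP) pathway were followed through human and mouse gastruloid development. They were the ligands BMP2, BMP4 and BMP7, the target genes ID1, ID2, ID3, MSX1 and MSX2, and the antagonists NOG and BAMBI. The genes were chosen by name, with no threshold on a measured value but with earlier results of these data known. Each was looked up in the human and the mouse count table by its identifier. All 10 were found in each species, giving 20 of the 74630 gene rows (10 of 44910 in human and 10 of 29720 in mouse).

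Polyadenylated RNA had been sequenced from 18 samples in 9 groups of 2 replicates. The human ESC groups were H9 in the naïve state, H9 in the primed state and the line RUES2-GLR (RUES2_GLR or RUES2GLR in the labels, with germ-layer reporters) in the primed state. RA-gastruloids made from RUES2-GLR ESCs were taken early (24 h) and late (120 h). RA-gastruloids are aggregates of ESCs that were exposed to CHIR99021, an agonist of WNT signalling, and to retinoic acid. By the paper's methods, Matrigel and a further dose of retinoic acid were added between the early and the late sampling. Stage and these additions cannot be told apart. In mouse, naïve ESCs kept in medium with CHIR99021, PD0325901 and LIF, EpiLCs made from them with Activin A and bFGF, and early and late gastruloids made from the naïve ESCs with a pulse of CHIR99021 all came from the line E14Tg2a. By the paper's methods, mouse gastruloids were sampled later after induction than human ones at either stage. No group carried a mutation named in the labels. Each group is 1 cell line, and primed H9 against primed RUES2-GLR compares lines of the same labelled state. The naïve H9 line had been reset chemically, was grown in inhibitors of MEK, tankyrase and PKC with LIF on mouse embryonic fibroblasts, and was then passaged off the feeders. Total counts ranged from 3681739 in replicate 2 of RUES2-GLR ESCs to 38771193 in replicate 2 of primed H9 ESCs, and from 6487157 to 20052505 in mouse. A count of 0 therefore allows a level of up to 0.0715 to 0.956 CPM (TMM-normalised, as all levels here) in human and 0.148 to 0.447 CPM in mouse, from 3 counts in a library and for counting error only.

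The labelled stages were checked against 8 markers each. The naïve markers summed to 4339 and 4602 CPM in naïve H9 ESCs and to a mean of 92.9 CPM in primed H9 ESCs, where KLF17 was at 0. The primed markers reached a mean of 3516 CPM in primed H9 and one of 4303 CPM in RUES2-GLR ESCs, although FGF5 was at 0 in both. Early mesoderm markers summed to 1213 and 1258 CPM in early RA-gastruloids, led by TBX6, and to 263 and 262 CPM in early mouse gastruloids, led by Tbxt, with Msgn1 at 0. Of the naïve markers, 7 of 8 were found in mouse. Early mouse gastruloids also held these at a mean of 1062 CPM, against 2662 CPM in naïve mouse ESCs and 75.4 CPM in EpiLCs. Primed markers were at a mean of 971 CPM in early mouse gastruloids, 251 CPM in naïve mouse ESCs and 2507 CPM in EpiLCs. The early stages of the 2 species thus differed in their marker levels. The mitochondrial genome took 21.4% and 22.4% of the counts in RUES2-GLR ESCs, and between 2.68% and 6.71% in the other human libraries.

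BMP ligands are secreted dimers that bring together type I and type II serine/threonine kinase receptors, which phosphorylate SMAD1, SMAD5 and SMAD9. These join SMAD4 and act on target genes, among which the ID genes are the classical direct targets. Noggin binds ligands outside the cell and keeps them from their receptors, while BAMBI is a membrane pseudoreceptor that lacks the kinase. In the gastrulating embryo, BMP4 from extraembryonic tissue helps to induce the primitive streak and mesoderm, and BMP antagonists from the node and its derivatives are needed for neural tissue. In bulk RNA, fewer cells expressing a gene and less RNA of it per cell cannot be told apart.

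All 10 human genes are protein-coding in GENCODE on GRCh38. The ligand genes lie at chr20:6767686-6780246 (BMP2), chr14:53949736-53958761 (BMP4) and chr20:57168753-57266641 (BMP7). The ID genes lie at chr20:31605283-31606515 (ID1), chr2:8678845-8684461 (ID2) and chr1:23557926-23559501 (ID3), so BMP2, BMP7 and ID1 share a chromosome. MSX1 and MSX2 lie at chr4:4859665-4863936 and chr5:174724582-174730896. The antagonist genes lie at chr17:56593699-56595611 (NOG) and chr10:28677510-28682932 (BAMBI). Counts were taken over all exons of a gene, UTRs included.

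Upstream sequences are shown for ID1, whose change between the gastruloid stages had opposite directions in human and mouse, and for human BAMBI. The windows hold the 250 bases before the annotated start, 5′ to 3′ on the strand of the gene. The start is that of RefSeq on GRCh38.p14 for human and the first exon of the count table on GRCm39 for mouse. These starts can differ from those of GENCODE. The human ID1 and BAMBI windows end slightly inside the genes as located above, and the mouse Id1 window lies inside the GENCODE gene. Of the human genes, 7 of 10 had a RefSeq window, and BMP2, BMP7 and NOG had none. The human ID1 window is chr20:31605039-31605288 (plus strand) and the mouse Id1 window is chr2:152577921-152578170 (plus strand). Capitals mark their longest shared run, 18 bases that begin 78 bases before the start in human and 67 bases before it in mouse.
ID1: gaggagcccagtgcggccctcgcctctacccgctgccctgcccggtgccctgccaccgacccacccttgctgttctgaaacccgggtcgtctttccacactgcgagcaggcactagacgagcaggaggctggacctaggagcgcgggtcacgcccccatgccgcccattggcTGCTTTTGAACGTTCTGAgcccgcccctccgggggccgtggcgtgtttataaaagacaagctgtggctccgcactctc
Id1: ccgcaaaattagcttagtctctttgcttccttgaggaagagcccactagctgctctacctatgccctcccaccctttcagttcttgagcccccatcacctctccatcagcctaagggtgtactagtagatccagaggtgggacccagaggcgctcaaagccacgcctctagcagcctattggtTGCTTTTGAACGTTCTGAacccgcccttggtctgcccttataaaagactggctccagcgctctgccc

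The human BAMBI window is chr10:28677271-28677520 (plus strand), and its capitals mark 3 copies of GGCGCC, a GC-rich sequence bound by SMAD1 and SMAD5, which begin 209, 196 and 181 bases before the start.
BAMBI: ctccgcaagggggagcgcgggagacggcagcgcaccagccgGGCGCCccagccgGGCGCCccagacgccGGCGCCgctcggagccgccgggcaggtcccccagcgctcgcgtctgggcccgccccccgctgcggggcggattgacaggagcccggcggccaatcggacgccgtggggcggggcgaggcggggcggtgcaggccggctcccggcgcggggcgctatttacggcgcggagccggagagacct

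Both strands of the windows were searched for GGCGCC and GTCTAGAC, which read the same on either strand, and for AGAC, the SMAD box, which also lies within GTCTAGAC. GGCGCC was held by 16.4% of 35116 human and 10.1% of 29697 mouse windows of the same length, AGAC by 77.5% and 83.3%, and GTCTAGAC by 0.182% and 0.185%. Among the BMP genes, GGCGCC was found in 2 human genes, BAMBI and 1 of the 3 windows of BMP4, and in 1 mouse gene, Bambi. These matches describe the letters of the windows only.

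**Figure D1:**
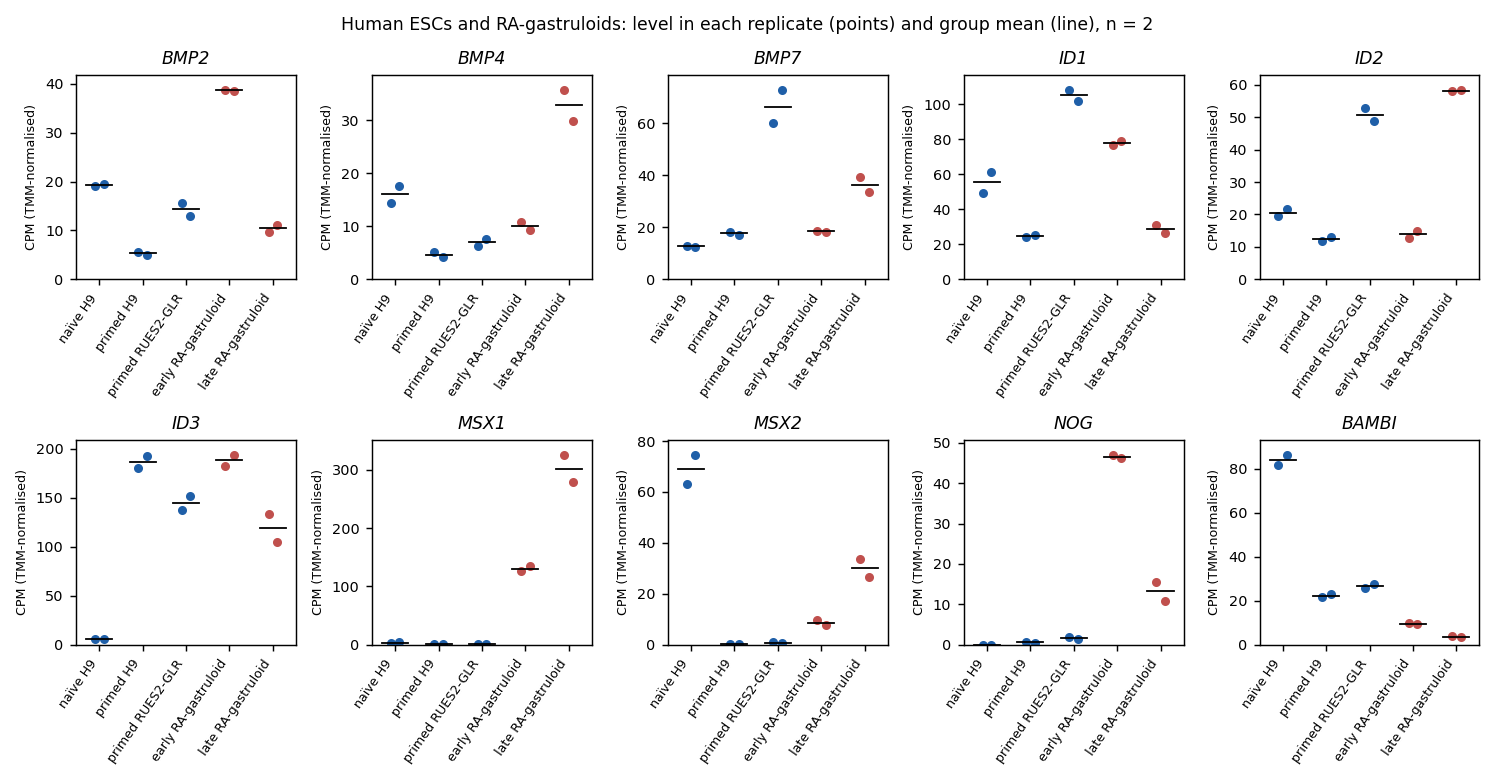
Level of each BMP gene in human samples, in TMM-normalised CPM on linear axes that start at 0 (points, 2 replicates per group, and line, their mean). In CPM, BMP2 and NOG were highest in early RA-gastruloids, BMP4, ID2 and MSX1 in late RA-gastruloids, BMP7 and ID1 in RUES2-GLR ESCs, and MSX2 and BAMBI in naïve H9 ESCs, while the replicates of primed H9 ESCs and early RA-gastruloids overlapped at the top for ID3. In TPM, a length-scaled measure over all genes, BMP7 overlapped between RUES2-GLR ESCs and late RA-gastruloids, ID1 was highest in early RA-gastruloids and ID3 in primed H9 ESCs.

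In CPM, the 3 human ligands were highest in different groups. BMP2, a ligand of the BMP2/4 class, was at 19.1 and 19.5 CPM in naïve H9 ESCs, 5.66 and 5.07 CPM in primed H9, 15.7 and 13.1 CPM in RUES2-GLR ESCs, 38.8 and 38.6 CPM in early RA-gastruloids, and 9.65 and 11.2 CPM in late RA-gastruloids. No 2 groups overlapped, with early RA-gastruloids highest and primed H9 ESCs lowest. BMP2 rose from RUES2-GLR ESCs to early RA-gastruloids by 1.38 ± 0.16 (log2 fold change ± approximate standard error, edgeR adjusted p = 6.02e-09). It fell from early to late by 1.91 ± 0.15 (edgeR adjusted p = 1.77e-12). These standard errors were derived from the F statistic of edgeR and can fall short of the counting error at few counts. BMP4, the paralog best known for inducing mesoderm, was at 14.4 and 17.7 CPM in naïve H9 ESCs, 5.17 and 4.12 CPM in primed H9, 6.31 and 7.65 CPM in RUES2-GLR ESCs, 10.9 and 9.29 CPM in early RA-gastruloids and 35.8 and 29.97 CPM in late RA-gastruloids. Late RA-gastruloids stood above every other group, and no groups overlapped. BMP4 rose from early to late by 1.71 ± 0.17 on the log2 scale (edgeR adjusted p = 3.15e-10), whereas its log2 fold change from RUES2-GLR ESCs to early RA-gastruloids, 0.60 ± 0.22, did not pass the fold threshold of 1 (edgeR adjusted p = 0.0214).

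BMP7, of the BMP5/6/7 class, was at 12.9 and 12.6 CPM in naïve H9 ESCs, 18.4 and 17.1 CPM in primed H9, 60.02 and 73.0 CPM in RUES2-GLR ESCs, 18.5 and 18.4 CPM in early RA-gastruloids and 39.3 and 33.4 CPM in late RA-gastruloids. Primed H9 ESCs and early RA-gastruloids differed by less than the spread within primed H9, and the other groups did not overlap. The place of RUES2-GLR ESCs at the top depended on the scale. In TPM over all genes, which divides counts by gene length before scaling each library to one total, mitochondrial transcripts included, BMP7 was at 24.2 and 28.4 in RUES2-GLR ESCs and at 28.6 and 25.1 in late RA-gastruloids, so these groups overlapped. In TPM over nuclear genes RUES2-GLR ESCs stood above them, with 51.8 and 62.0 against 34.98 and 33.1. In CPM, BMP7 fell from RUES2-GLR ESCs to early RA-gastruloids by 1.82 ± 0.14 on the log2 scale (edgeR adjusted p = 2.08e-12). Its log2 fold change from early to late, 0.99 ± 0.14, lay just under the fold threshold (edgeR adjusted p = 5.01e-07), and was past it without replicate 2 of late RA-gastruloids (1.10). On a scale of CPM per kb, which allows levels of different genes to be compared, BMP2 made up 62.1% ± 1.2 (SD, n = 2) of the summed level of the 3 ligands in early RA-gastruloids, and BMP4 made up 52.3% ± 1.9 in late RA-gastruloids. The summed level was 17.6 CPM per kb early and 20.3 CPM per kb late, so the leading ligand differed between groups whose sums were alike. In RUES2-GLR ESCs, BMP7 held 65.8% ± 3.9. The gene bodies of BMP4, BMP7 and ID2 overlap genes of the opposite strand (ENSG00000287156, BMP7-AS1 and ID2-AS1). Reads were counted without regard to strand, and whether reads were gained from or lost to these genes was not tested.

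The ID genes encode helix-loop-helix proteins without a DNA-binding domain, which hold back basic helix-loop-helix factors. ID1 was at 49.3 and 61.4 CPM in naïve H9 ESCs, 24.3 and 25.2 CPM in primed H9, 108 and 102 CPM in RUES2-GLR ESCs, 76.9 and 79.0 CPM in early RA-gastruloids and 31.0 and 26.2 CPM in late RA-gastruloids. In TPM over all genes it was instead highest in early RA-gastruloids, at 243 and 251 against 192 and 175 in RUES2-GLR ESCs. ID1 fell from early to late by 1.43 ± 0.13 on the log2 scale (edgeR adjusted p = 3.76e-11). ID2 took the opposite course between these stages. It was at 19.5 and 21.6 CPM in naïve H9 ESCs, 11.9 and 13.2 CPM in primed H9, 52.8 and 48.7 CPM in RUES2-GLR ESCs, 12.8 and 14.9 CPM in early RA-gastruloids and 57.99 and 58.5 CPM in late RA-gastruloids. The primed H9 and early RA-gastruloid replicates overlapped, and the late replicates were above all others. ID2 fell on entry into early RA-gastruloids (log2 fold change -1.89 ± 0.14, edgeR adjusted p = 1.17e-12) and rose from early to late (2.07 ± 0.14, edgeR adjusted p = 4.88e-14).

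ID3 was set apart by naïve H9 ESCs, where it was at 6.22 and 5.91 CPM, against 180 and 193 CPM in primed H9, 138 and 152 CPM in RUES2-GLR ESCs, 182 and 193 CPM in early RA-gastruloids and 134 and 105 CPM in late RA-gastruloids. It rose from naïve to primed H9 by 4.94 ± 0.14 on the log2 scale (edgeR adjusted p = 1.79e-23), while ID1 fell by 1.16 ± 0.12 (edgeR adjusted p = 6.96e-10) and ID2 had a log2 fold change of -0.70 ± 0.13 (edgeR adjusted p = 1.8e-05), under the fold threshold. The fall of ID1 was also under it in TPM, with a log2 ratio of -0.65 over all genes and -0.75 over nuclear genes. The leading ID paralog by CPM per kb accordingly differed between the H9 states. In naïve H9 ESCs, ID1 held 76.9% ± 2.1 of the summed ID1 to ID3 level. In the primed state it held 13.4% ± 0.25, and ID3 held 82.9% ± 0.14.

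MSX1 and MSX2 are homeobox genes that respond to BMP in mesenchyme, neural crest and the dorsal neural tube. MSX1 was at 2.67 and 4.25 CPM in naïve H9 ESCs, 0.349 and 0.572 CPM in primed H9, 0.491 and 0.637 CPM in RUES2-GLR ESCs, 126 and 134 CPM in early RA-gastruloids and 326 and 279 CPM in late RA-gastruloids. The primed groups overlapped near the floor, and the gastruloid groups stood far above all ESCs. The rise from RUES2-GLR ESCs, at 6 and 2 counts, to early RA-gastruloids was 7.94 ± 0.26 on the log2 scale (edgeR adjusted p = 1.2e-21). The further rise to late RA-gastruloids was 1.22 ± 0.12 (edgeR adjusted p = 4.16e-10).

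MSX2 was instead highest in naïve H9 ESCs. It was at 63.1 and 74.5 CPM there, 0.280 and 0.214 CPM in primed H9, 0.901 and 0.637 CPM in RUES2-GLR ESCs, 9.51 and 7.67 CPM in early RA-gastruloids and 33.6 and 26.6 CPM in late RA-gastruloids. No groups overlapped. It fell from naïve to primed H9, at 4 and 9 counts, by 8.17 ± 0.24 on the log2 scale (edgeR adjusted p = 1.79e-23). MSX2 rose into early RA-gastruloids by 3.34 ± 0.34 (edgeR adjusted p = 5.73e-10) and to late ones by 1.82 ± 0.16 (edgeR adjusted p = 7.04e-11). By CPM per kb, MSX2 held 95.1% ± 0.99 of the MSX1 and MSX2 sum in naïve H9 ESCs, and MSX1 held 94.1% ± 1.1 in early and 91.4% ± 0.43 in late RA-gastruloids. MSX2 has a processed copy, MSX2P1, with which its reads may be shared. Of 8 amnion and surface ectoderm markers, 7 were higher in both naïve than in both primed H9 replicates, as MSX2 was. GABRP went the other way, at 0.784 and 0.516 CPM in naïve and 9.02 and 8.08 CPM in primed H9. Their sums were 479 and 565 against 232 and 231 CPM, of which KRT18 alone held a mean of 456 and one of 208 CPM. Of the 8, 7 reached 1 CPM in both naïve replicates and 4 in both primed ones, with none at 0 in either. Fibroblast markers were at 687 and 666 CPM in naïve H9 ESCs, led by COL1A1, and at 680 and 703 CPM in primed H9 ESCs, led by THY1, also on the list of primed markers, with DCN and LUM at 0. Of the 8, 5 were lower in both primed than in both naïve replicates, and PDGFRB and THY1 were higher. The part of either list in the MSX2 values was not tested.

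NOG, which encodes the secreted ligand trap noggin, was at 0 in both naïve H9 replicates, 0.699 and 0.357 CPM in primed H9, 1.88 and 1.27 CPM in RUES2-GLR ESCs, 47.0 and 46.2 CPM in early RA-gastruloids and 15.6 and 10.9 CPM in late RA-gastruloids. Against a floor of 3 counts in each naïve library, the summed primed H9 counts, 25, were at least 2.71-fold higher per effective library size. It rose into early RA-gastruloids by 4.73 ± 0.26 on the log2 scale (edgeR adjusted p = 6.79e-16), and fell by 1.78 ± 0.17 to the late stage (edgeR adjusted p = 1.77e-10). BAMBI, the membrane antagonist whose upstream window is shown above, was highest in naïve H9 ESCs and lowest in late RA-gastruloids. It was at 81.6 and 86.3 CPM in naïve H9 ESCs, 21.6 and 23.0 CPM in primed H9, 25.7 and 27.7 CPM in RUES2-GLR ESCs, 9.80 and 9.39 CPM in early RA-gastruloids and 3.78 and 3.36 CPM in late RA-gastruloids. It fell by 1.46 ± 0.16 into early RA-gastruloids (edgeR adjusted p = 2.02e-09) and by 1.40 ± 0.19 from early to late (edgeR adjusted p = 1.59e-07), both on the log2 scale. BMP2, ID1, NOG and BAMBI were thus lower in late than in early RA-gastruloids, in both replicates, while BMP4, ID2, MSX1 and MSX2 were higher.

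A gene was called at an edgeR adjusted p under 0.05 over all tested genes of the species and an absolute log2 fold change above 1. From naïve to primed H9, 2 of 10 BMP genes rose (ID3 and NOG), 6 fell (BMP2, BMP4, ID1, MSX1, MSX2 and BAMBI) and 2 were not called, where 25.5% of all 18300 genes rose and 22.3% fell (47.8% in all). In TPM over all genes, where that step's median over genes at 1 CPM or more was 0.51 higher, 6 of the 7 called genes with counts in both groups were past the fold threshold and ID1 was not. From primed H9 to RUES2-GLR ESCs, 6 rose (BMP2, BMP7, ID1, ID2, MSX2 and NOG) and none fell, where 17.1% of all genes rose and 12.2% fell (29.3% in all), and the median log2 fold change was 1.66 beside -0.12 over all genes. Of all genes, 3130 rose and 2227 fell in this fit, against 3178 and 1366 by DESeq2 and 3568 and 1627 with median-ratio size factors. The sizes of the 6 rises also depended on the scale. In TPM over all genes, the median log2 ratio of 13530 genes at 1 CPM or more in both groups was 1.02 lower than in CPM. There 1 of the 6, ID1 at a log2 ratio of 1.06, was past the fold threshold, and the other 5 lay between 0.40 and 0.998. In TPM over nuclear genes all 6 were past it, between 1.32 and 1.98. Of 8 amnion and surface ectoderm markers, 6 were higher and 1 lower in both RUES2-GLR than in both primed H9 replicates. Of the fibroblast markers 4 were higher and 1 lower, as of the late neural and somite markers. The mean sums of the 3 lists went from 231 to 301, from 691 to 1140 and from 19.0 to 15.4 CPM. Their part in the BMP gene values was not tested. The NOG and MSX2 calls from primed H9 to RUES2-GLR ESCs rested on low counts. Without replicate 1 of RUES2-GLR ESCs their edgeR adjusted p was 0.177 and 0.348, and without replicate 2 of primed H9 ESCs that of MSX2 was 0.0892. From RUES2-GLR ESCs to early RA-gastruloids, 4 rose, 3 fell and 3 were not called, where 12.0% of all genes rose and 17.6% fell (29.6% in all). The median of this step was 0.86 higher in TPM over all genes than in CPM. On that scale 5 of the 7 were past the fold threshold, with BMP7 at -0.99 and BAMBI at -0.62, and ID1, which was not called, turned from -0.43 to 0.43. From early to late RA-gastruloids, 4 rose, 4 fell and 2 were not called, where 11.8% of all genes rose and 13.2% fell (24.9% in all). In that last comparison the median log2 fold change was 0.17, beside 0 over all genes, since rises and falls were equal in number.

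**Figure D2:**
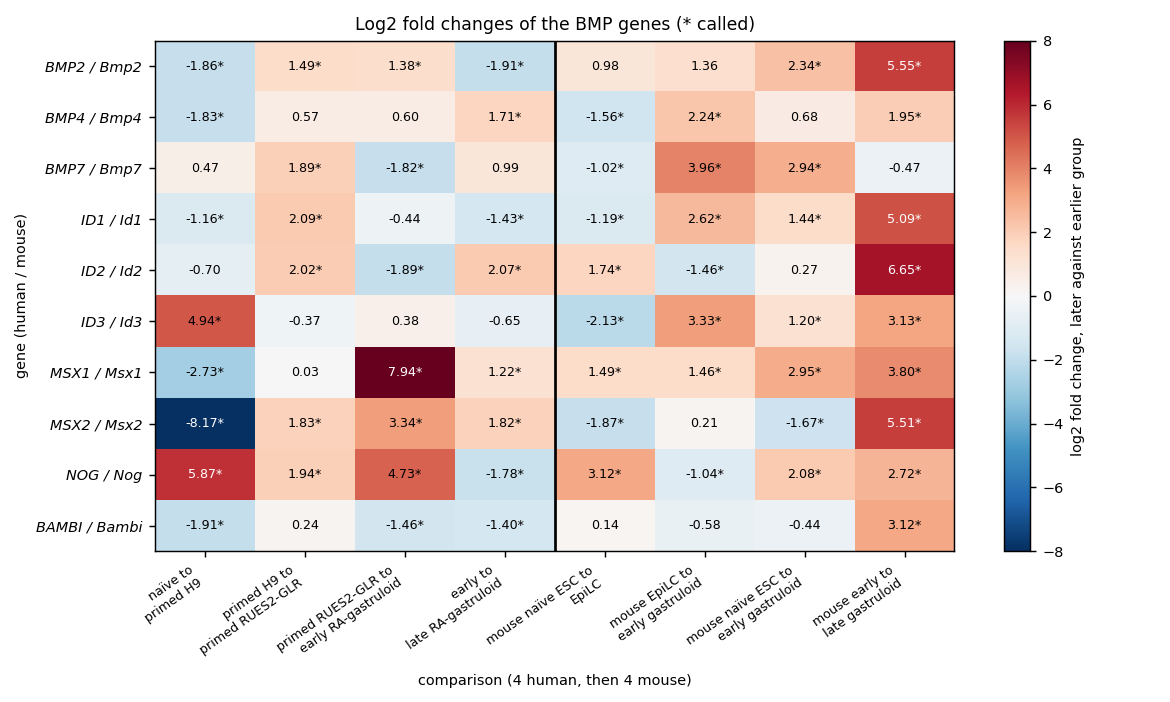
Log2 fold change of each BMP gene (rows) in 4 human and 4 mouse comparisons (columns), later against earlier group, with an asterisk where the gene was called. The column from early to late mouse gastruloids holds 9 rises and no called fall, while the human column holds 4 of each. The fitted value of 5.87 for NOG from naïve to primed H9 is set against a group at 0 and is no bound.

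**Figure D3:**
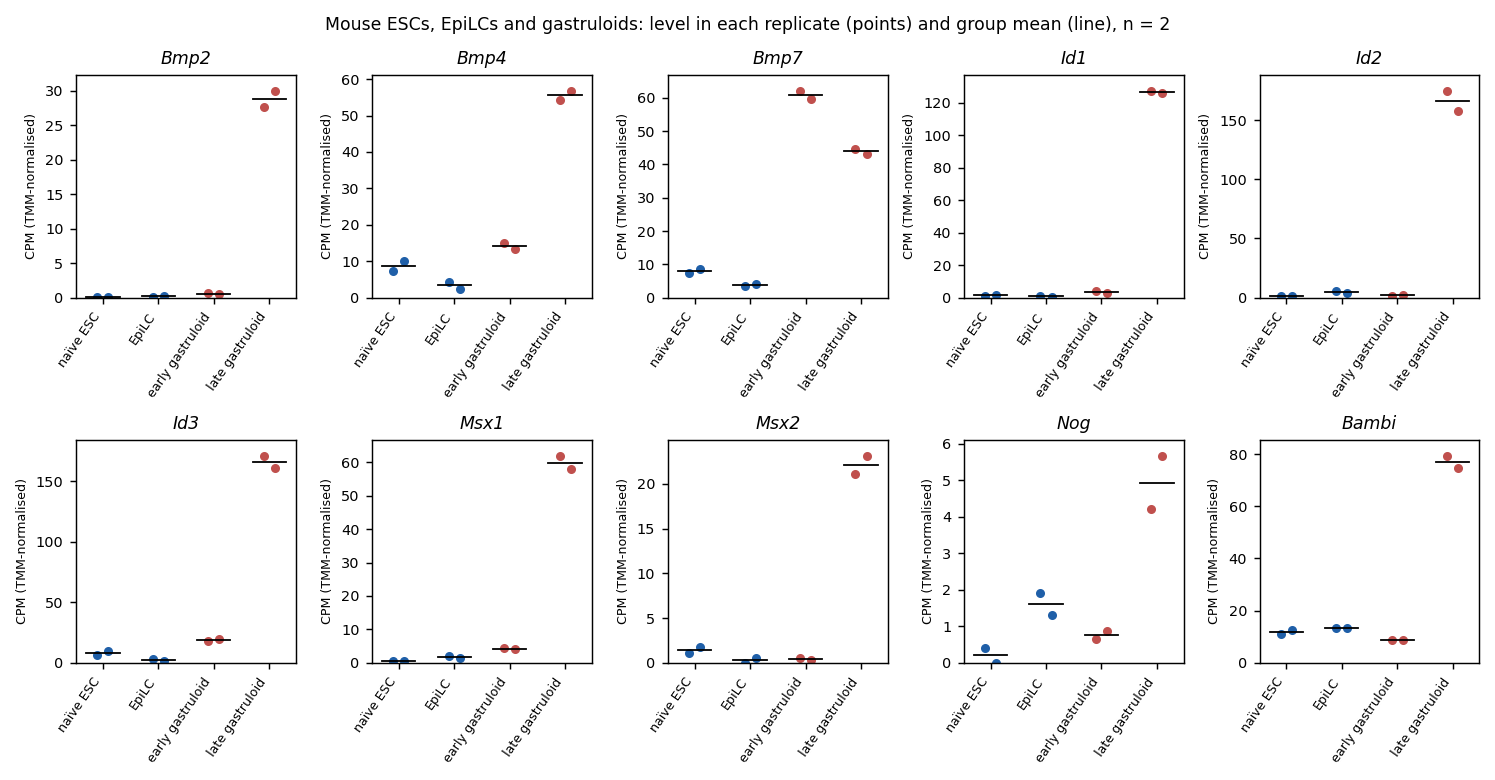
Level of each BMP gene in mouse samples, in TMM-normalised CPM on linear axes that start at 0 (points, 2 replicates per group, and line, their mean). Late gastruloids were highest for 9 of the 10 genes, and early gastruloids for Bmp7.

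In mouse, most of the BMP genes were low until the late gastruloid. Bmp2 was at 0.140 and 0.0897 CPM in naïve ESCs, 0.148 and 0.263 CPM in EpiLCs and 0.642 and 0.528 CPM in early gastruloids, and reached 27.7 and 29.9 CPM in late gastruloids. From 13 and 6 counts in the early libraries, the rise to the late stage was 5.55 ± 0.24 on the log2 scale (edgeR adjusted p = 6.4e-29). The naïve level rested on 2 counts over both libraries, so the ratio of early gastruloids to naïve ESCs, 5.5, had a 95% counting interval of 1.33 to 48.7. Bmp4 was at 7.40 and 10.05 CPM in naïve ESCs, 4.29 and 2.43 CPM in EpiLCs, 15.0 and 13.5 CPM in early gastruloids and 54.4 and 56.7 CPM in late gastruloids, with no overlap between groups. It fell into EpiLCs by 1.56 ± 0.22 on the log2 scale (edgeR adjusted p = 1.21e-08) and rose from early to late gastruloids by 1.95 ± 0.11 (edgeR adjusted p = 3.77e-23).

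Bmp7 led the early stage among the 3 mouse ligands. It was at 7.26 and 8.43 CPM in naïve ESCs, 3.55 and 4.08 CPM in EpiLCs, 62.1 and 59.5 CPM in early gastruloids and 44.7 and 43.2 CPM in late gastruloids. From naïve ESCs to early gastruloids it rose by 2.94 ± 0.12 on the log2 scale (edgeR adjusted p = 4.78e-30), and from early to late its log2 fold change of -0.47 ± 0.09 did not pass the fold threshold (edgeR adjusted p = 3e-06). In CPM per kb, Bmp7 held 70.0% ± 0.99 of the summed level of the 3 ligands in early gastruloids, and Bmp4 held 56.5% ± 0.50 in late gastruloids, while the sum went from 21.6 to 43.8 CPM per kb. Among these 3 ligands, BMP4 therefore led the late stage in each species, and the early stage was led by BMP2 in human and Bmp7 in mouse. Other BMP ligands were not in the sum.

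All 5 mouse targets rose from early to late gastruloids. Id1 was at 1.26 and 1.44 CPM in naïve ESCs, 1.03 and 0.395 CPM in EpiLCs, 4.10 and 3.08 CPM in early gastruloids and 127 and 126 CPM in late gastruloids. The late rise of Id1 was 5.09 ± 0.12 on the log2 scale (edgeR adjusted p = 4.51e-42). Id2 was at 1.12 and 1.53 CPM in naïve ESCs, 5.47 and 4.15 CPM in EpiLCs, 1.28 and 2.29 CPM in early gastruloids and 175 and 158 CPM in late gastruloids. EpiLCs were the only group before the late stage in which Id2 stood above the others, and naïve ESCs and early gastruloids overlapped. Its late rise of 6.65 ± 0.13 was the steepest of the 10 genes (edgeR adjusted p = 2.35e-45). Id3 was at 6.42 and 9.51 CPM in naïve ESCs, 2.81 and 1.45 CPM in EpiLCs, 18.2 and 20.1 CPM in early gastruloids and 171 and 161 CPM in late gastruloids, a late rise of 3.13 ± 0.09 (edgeR adjusted p = 1.71e-37). Id1 and Id3 were thus lowest in EpiLCs, where Id2 was above its naïve level. The summed ID level was 14.5 ± 0.41 CPM per kb in early and 270 ± 9.4 CPM per kb in late gastruloids, whereas in human it was 195 ± 7.2 CPM per kb early and 129 ± 16 CPM per kb late.

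Msx1 was at 0.419 and 0.628 CPM in naïve ESCs, 1.92 and 1.38 CPM in EpiLCs, 4.35 and 4.22 CPM in early gastruloids and 61.8 and 57.9 CPM in late gastruloids, so each group stood above the one before. Its late rise was 3.80 ± 0.13 on the log2 scale (edgeR adjusted p = 2.12e-33). Msx2 was at 1.12 and 1.79 CPM in naïve ESCs, 0 and 0.592 CPM in EpiLCs, 0.593 and 0.264 CPM in early gastruloids and 21.1 and 23.1 CPM in late gastruloids. EpiLCs and early gastruloids overlapped. From 12 and 3 counts in the early libraries, the late rise was 5.51 ± 0.29 (edgeR adjusted p = 7.22e-25). As in human, MSX2 held the larger share of the MSX pair by CPM per kb in naïve ESCs, 72.3% ± 0.98, but on a summed level of 0.613 CPM per kb, against 32.6 CPM per kb in naïve H9 ESCs.

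Nog was low in every mouse group. It was at 0.419 and 0 CPM in naïve ESCs, 1.92 and 1.32 CPM in EpiLCs, 0.642 and 0.879 CPM in early gastruloids and 4.20 and 5.66 CPM in late gastruloids. The naïve level was 3 counts over both libraries, and the EpiLC to naïve ratio of 9.17 had a 95% counting interval of 2.88 to 46.7. The late rise was 2.72 ± 0.39 on the log2 scale (edgeR adjusted p = 1.18e-08). The fall of Nog from EpiLCs to early gastruloids, 1.04 ± 0.47, was at an edgeR adjusted p of 0.0469, and 9 of 14 alternatives ended this call. The adjusted p was 0.0518 with no low-count filter, 0.0684 with a replicate block and 0.122 by DESeq2, and up to 0.279 when 1 EpiLC or gastruloid library was left out. Bambi was at 11.2 and 12.6 CPM in naïve ESCs, 13.5 and 13.2 CPM in EpiLCs, 8.94 and 8.79 CPM in early gastruloids and 79.1 and 74.8 CPM in late gastruloids. It was called in 1 of the 4 mouse comparisons, the late rise of 3.12 ± 0.10 (edgeR adjusted p = 5.05e-34). Apart from Bmp2, Msx1 and Nog, the mouse gene bodies overlapped a predicted gene on the opposite strand in GENCODE, and that of Bmp7 also one on the same strand (Gm40010). Whether reads were gained from or lost to these genes was not tested.

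Of the 10 mouse genes, 3 rose and 5 fell from naïve ESCs to EpiLCs, where 17.7% of 15003 genes rose and 12.1% fell (29.8% in all). Of these 8, 6 were past the fold threshold in TPM over all genes, with Bmp7 at -0.93 and Id1 at -0.81. As ratios of group means in CPM these were -1.04 and -0.91, so Id1 was under the threshold on either scale. From EpiLCs to early gastruloids 5 rose and 2 fell (Id2 and, by the call that 9 of 14 alternatives ended, Nog), where 11.7% of all genes rose and 9.24% fell (20.9% in all), and from naïve ESCs to early gastruloids 6 rose and 1 fell, where 16.2% rose and 6.81% fell (23.0% in all). From early to late gastruloids 9 rose and none fell, where 20.1% of all genes rose and 19.1% fell (39.2% in all), and the median log2 fold change was 3.46 beside -0.03 over all genes. Several calls before the late stage rested on 1 library. Without replicate 2 of naïve ESCs, 4 of the 8 calls into EpiLCs were lost (Bmp7, Id1, Msx2 and Nog), as were 3 of the 7 calls from naïve ESCs to early gastruloids (Bmp2, Msx2 and Nog). Without replicate 2 of EpiLCs the log2 fold change of Id1 into EpiLCs was -0.39. Of 8 fibroblast markers, 7 were higher in both late than in both early mouse replicates. Thy1 was lower, at 13.5 and 13.3 CPM early and 1.28 and 1.49 CPM late. Their sum was 21.9 and 23.2 CPM in early and 654 and 689 CPM in late gastruloids, where all 8 reached 1 CPM in both replicates and Col3a1 led, against 3 of 8 led by Thy1, with Postn at 0, in early gastruloids. Of the mouse neural crest markers, 4 were higher and 2 lower late. They summed to 67.0 and 65.4 CPM early, led by Erbb3 with Tfap2b at 0, and to 168 and 162 CPM late, led by Ets1, with 4 and 6 of 8 at 1 CPM or more in both replicates. In human, the fibroblast sum was 1162 and 1101 CPM in early and 757 and 642 CPM in late RA-gastruloids, led by COL1A2 in both with none at 0, and 5 and 6 of the 8 reached 1 CPM in both replicates. The sum of human neural crest markers went the other way from the mouse one, although 5 of the 8 were higher late and 3 lower. It went from 441 and 445 CPM early, with FOXD3 at 0, to 155 and 172 CPM late, led by ETS1 with none at 0, and 6 and 8 of 8 reached 1 CPM in both replicates. Of the late neural and somite markers, 7 of 8 were higher and 1 lower at the late stage in human, and 5 were higher and 2 lower in mouse. In human they summed to 61.4 and 58.7 CPM early, led by FOXC2, and to 801 and 731 CPM late, led by PAX3, with none at 0 and 3 and 7 of 8 at 1 CPM or more in both replicates. In mouse they summed to 36.3 and 35.1 CPM early, led by Tcf15 with none at 0, and to 239 and 242 CPM late, led by Meox1 with Myod1 at 0, with 2 and 6 of 8 at that level. The part of these cell types in the BMP gene values was not tested.

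**Figure D4:**
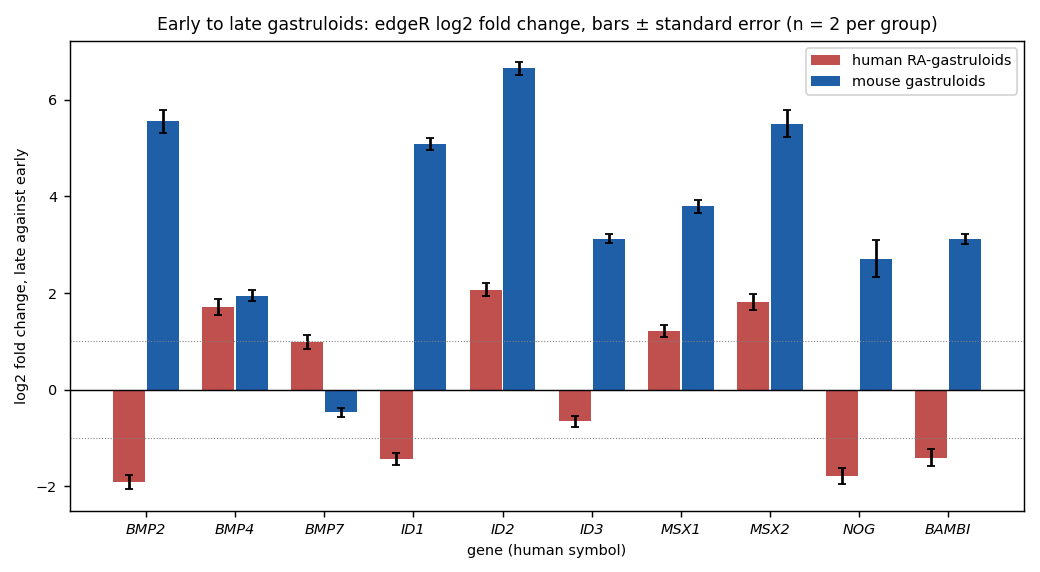
Log2 fold change from early to late gastruloids (bars) with its approximate standard error, derived from the F statistic (whiskers), for each BMP gene in human and mouse, n = 2 per group, with dotted lines at 1 and -1. BMP2, ID1, ID3, NOG and BAMBI lie below 0 in human and above 0 in mouse, BMP7 lies the other way, and BMP4 is at 1.71 in human and 1.95 in mouse.

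The difference between species in the early to late change was taken as mouse change minus human change and tested in a joint edgeR fit of the 18 samples, over 14007 genes whose symbols matched. It was called for 9 of 10 BMP genes, 8 higher in mouse and 1 lower, where 35.4% of all genes were called, 18.7% higher and 16.7% lower in mouse. The median difference was 3.99 beside -0.05 over all genes. The early and late stages of the protocols differ in time and in agents, so species and protocol cannot be told apart. BMP2 had a difference of 7.32 ± 0.27 (edgeR adjusted p = 1.33e-22) and ID1, whose windows share the run shown in capitals above, one of 6.38 ± 0.19 (edgeR adjusted p = 3.2e-25). NOG and BAMBI, the antagonists that fell in human and rose in mouse, differed by 4.35 ± 0.40 and 4.37 ± 0.21 (edgeR adjusted p = 2.33e-11 and 3.17e-19). ID2, MSX1 and MSX2 rose in each species, and more in mouse, by 4.42 ± 0.23, 2.43 ± 0.18 and 3.55 ± 0.39 on the log2 scale. ID3, which was not called in human, had a difference of 3.63 ± 0.16 (edgeR adjusted p = 1.86e-20). BMP7 was the exception in direction, with -1.60 ± 0.17 (edgeR adjusted p = 3.29e-10). For BMP4, the difference of 0.09 ± 0.22 was within its standard error (edgeR adjusted p = 0.749).

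For the step from the ESCs used to make gastruloids (RUES2-GLR or mouse naïve ESCs) to the early stage, the difference was called for 6 of 10 genes, 4 higher and 2 lower in mouse, where 23.3% of all genes were higher and 10.8% lower in mouse (34.1% in all). The MSX genes stood on the human side, with -4.84 ± 0.76 for MSX1 (edgeR adjusted p = 1.41e-06) and -4.86 ± 0.65 for MSX2 (edgeR adjusted p = 6.32e-08). BMP7 had the opposite sign, 4.90 ± 0.19 (edgeR adjusted p = 6.79e-22), since it fell in human and rose in mouse. ID1, ID2 and BAMBI had differences of 2.02, 2.32 and 1.17 on the log2 scale. The human side of this step starts from RUES2-GLR ESCs and moved with the scale. As differences of log2 ratios of group means, ID1, ID2 and BAMBI were at 1.85, 2.31 and 1.05 in CPM, at 1.07, 1.53 and 0.28 in TPM over all genes and at 1.96, 2.42 and 1.16 in TPM over nuclear genes, so BAMBI was under the threshold on 1 of the 3 scales. For BMP2, BMP4, ID3 and NOG the difference was not called. That of ID3, 0.97, lay just under the fold threshold. It ranged from 0.74 to 1.36 over 23 alternatives and was called in 4 of them, each without 1 library. That of BMP4 changed sign, from 0.17 in CPM to -0.60 in TPM over all genes. The difference of NOG (-2.50 ± 1.29, edgeR adjusted p = 0.0983) rested on 3 counts in mouse naïve ESCs.

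**Figure D5:**
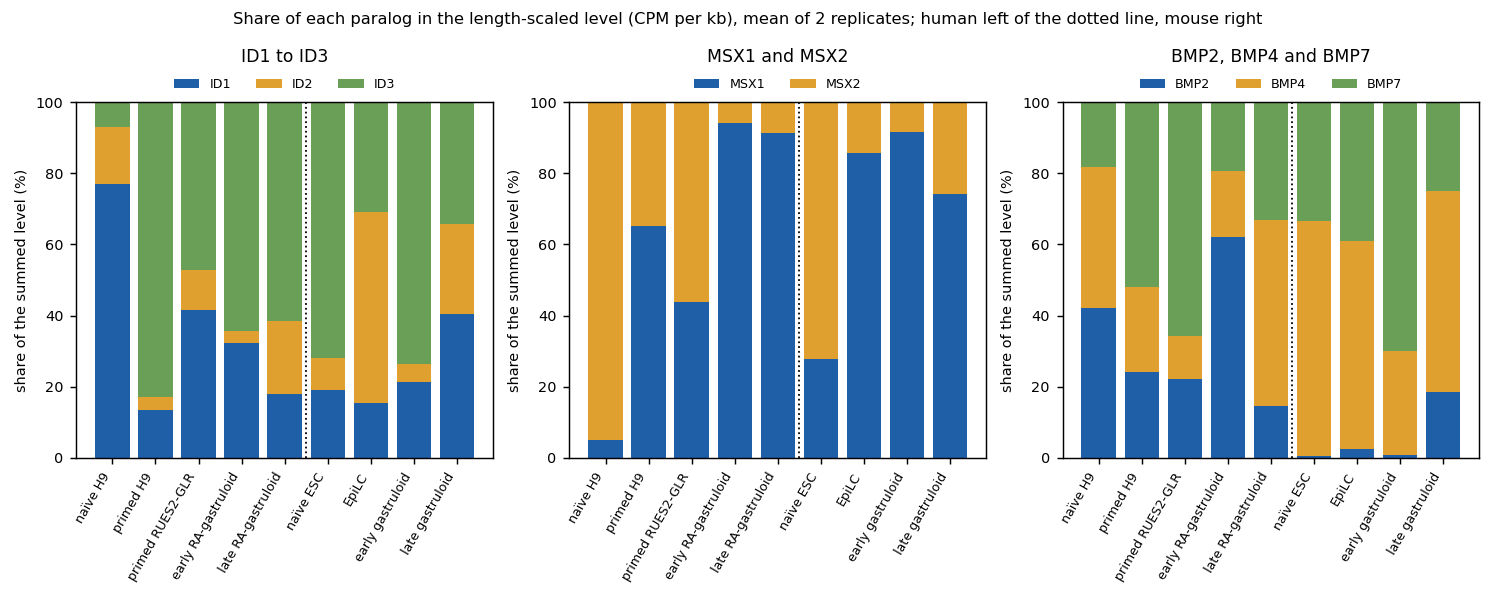
Share of each paralog in the summed CPM per kb of its family (stacked bars, %, mean of 2 replicates), for ID1 to ID3, the MSX genes and the ligands BMP2, BMP4 and BMP7, with human groups left and mouse groups right of the dotted line. ID1 and MSX2 fill most of the naïve H9 bars, with 76.9% and 95.1%, and BMP4 is the largest ligand share of the late stage in each species, with 52.3% and 56.5%. The MSX bars of primed human ESCs, EpiLCs, naïve mouse ESCs and early mouse gastruloids stand for sums of at most 1.51 CPM per kb.

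A further 52 genes of the pathway were counted beside the 10, as 10 ligands, 11 receptors and co-receptors, 6 SMADs, 15 antagonists and 10 targets. In human 48 of the 52 passed the filter on low counts. From naïve to primed H9, 13 rose and 14 fell, 56.2% called beside 47.8% of all genes. Of the targets 7 of 10 fell and none rose. HAND1, a mesoderm and extraembryonic transcription factor, was at 33.2 and 49.3 CPM in naïve H9 ESCs and at 1 count over both primed H9 libraries, a ratio of 2300 with a 95% counting interval of 413 to 91000. Of 14 tested antagonists, 5 rose and 3 fell. CHRDL1, a chordin-like ligand trap, went from 1 count over both naïve libraries to a mean of 47.0 CPM, a ratio of 1730 (310 to 68200). Of the receptors and co-receptors, RGMA, a co-receptor, rose from a mean of 22.9 to 72.7 CPM, and the type I receptor ACVR1 fell by 1.01 ± 0.12 on the log2 scale, a call that was lost just under the fold threshold in 7 alternatives.

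From primed H9 to RUES2-GLR ESCs, 13 of the 48 rose and 4 fell, 35.4% called beside 29.3% of all genes. FST, encoding the Activin and BMP antagonist follistatin, rose by 5.65 ± 0.14 on the log2 scale, from a mean of 4.62 to 241 CPM. ID4 and the type II receptor ACVR2A rose by 2.14 ± 0.16 and 1.73 ± 0.15, while SMAD7, an inhibitory SMAD, fell by 1.20 ± 0.17. From RUES2-GLR ESCs to early RA-gastruloids, 15 rose and 10 fell (52.1% called, beside 29.6% of all genes), with 6 of 10 targets up and 1 down, and 5 of 11 receptors down and none up. ATOH8 rose from 3 counts over both RUES2-GLR libraries to a mean of 16.3 CPM, a ratio of 83.4 (28.3 to 406). SMAD9, a BMP receptor SMAD, rose by 2.17 ± 0.26 and GREM1, a ligand trap, by 3.66 ± 0.21, whereas NBL1, of the same antagonist family as GREM1, fell by 3.50 ± 0.23 and ACVR1 fell by 1.62 ± 0.14. All of these passed the edgeR test. The counts of both comparisons were made on TMM-normalised values. In TPM over all genes the median was 1.02 lower than in CPM for the first comparison and 0.86 higher for the second. The balance of rises and falls may therefore differ on that scale.

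From early to late RA-gastruloids, 15 of 48 rose and 7 fell (45.8% called, beside 24.9% of all genes), and none of the 6 SMADs was called. With the adjusted p alone, 38 of the 48 changed, where 52.0% of all genes did. GREM1 rose again, from a mean of 32.1 to 142 CPM (log2 fold change 2.15 ± 0.13), as NOG fell. CER1, the secreted antagonist cerberus, fell from 10.9 to 0.199 CPM. The ligand GDF7, known from the roof plate of the neural tube, was at 5 counts over both early libraries and at a mean of 15.8 CPM late, a ratio of 66.2 (28.2 to 205). RGMA and ID4 rose by 2.30 ± 0.13 and 1.51 ± 0.14 on the log2 scale. Of the 14 tested antagonists among the 52 genes, 5 rose and 3 fell in this step. Among the antagonists named here, the late stage held higher GREM1 and lower NOG, BAMBI and CER1 than the early stage.

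In mouse 43 of the 52 passed the filter. From naïve ESCs to EpiLCs 8 rose and 10 fell, 41.9% called beside 29.8% of all genes. Tbx3, a T-box target gene, went from a mean of 248 to 0.723 CPM (log2 fold change -8.31 ± 0.13), and the co-receptor Eng (endoglin) fell by 1.39 ± 0.08. From EpiLCs to early gastruloids 13 rose and 8 fell (48.8% called, beside 20.9% of all genes), among them Tbx3, which rose by 6.56 ± 0.16 to a mean of 74.3 CPM, Fst and Eng, which rose by 2.32 ± 0.10 and 1.42 ± 0.07, and the inhibitory Smad6, which fell by 1.19 ± 0.14. From naïve ESCs to early gastruloids 8 rose and 6 fell (32.6% called, beside 23.0% of all genes), and with the adjusted p alone 24 of 43 changed, where 63.0% of all genes did. Set against naïve ESCs, early gastruloids had higher Fst (3.08 ± 0.11) and lower Tbx3 (-1.74 ± 0.06) and Smad6 (-1.24 ± 0.15).

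From early to late mouse gastruloids 27 of 43 rose and 5 fell, 74.4% called beside 39.2% of all genes, of which 20.1% rose and 19.1% fell. The rises were 4 of 6 tested ligands, 8 of 11 receptors, 4 of 6 SMADs, 7 of 11 tested antagonists and 4 of 9 tested targets. Smad6 rose by 3.34 ± 0.12 on the log2 scale while the other inhibitory SMAD, Smad7, fell by 1.16 ± 0.08. The ligand Bmp5 went from a mean of 0.313 to 37.7 CPM, and Hand1 from 0.785 to 176 CPM. Grem1 was at 1 count over both early libraries and at a mean of 20.4 CPM late, a ratio of 644 (115 to 25500). Rgma rose by 3.57 ± 0.12. Among genes that reached a mean of 10 CPM, the falls were led by Fst (-3.04 ± 0.12), Eng (-2.42 ± 0.09) and Id4 (-2.07 ± 0.17), so Id4 moved against Id1, Id2 and Id3. GREM1 and RGMA were thus called as rising to the late stage in each species.

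The genes whose log2 CPM ran most closely with 3 of the BMP genes are given as a description over samples that share their stage, with no test. Over the 10 human samples of 5 groups and 11800 genes, BMP4 ran most closely with NRG1 (Pearson's r = 0.98), MLLT6 and OAF, ID1 with RETSAT (0.98), STC2 and PERP, and MSX1 with HOXC8, HOXD4 and HOXB9 (0.99 or above for each). Over the 8 mouse samples of 4 groups and 10789 genes, Bmp4 ran most closely with Id3, Sac3d1 and Epc1, Id1 with Ten1, Asb4 and Decr1, and Msx1 with Pik3r3, Gm57852 and Plcl2. The values rest on 5 and 4 distinct stages.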

How the data were processed

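Per the methods and the submitters' processing notes, Trimmomatic 0.39 was used for trimming, STAR for alignment (GRCh38, GRCm39) and featureCounts for counting at its defaults, which do not use strand. The authors deposited 1 table of raw whole-number counts per species, not normalized. All sample columns were used (0 left unmapped). The annotation release is not given in the sources used here. GENCODE 44 symbols were found for 44876 of 44910 human genes, and those of GENCODE M39 for 29486 of 29720 mouse genes. Labels gave the groups, and replicates of a stage came from 1 experimental batch, so p-values measure the spread between such samples.

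Counts were normalised by TMM, filtered with filterByExpr (18300 human and 15003 mouse genes kept, all 20 BMP genes among them) and tested with edgeR 4.0.16 (R 4.3.3) by glmQLFit and glmQLFTest, 1 fit per species with Benjamini-Hochberg adjustment over all tested genes. Calls needed an adjusted p under 0.05 with a log2 fold change above 1 in size. The approximate standard error of a log2 fold change is its size over the square root of the F statistic. It can fall short of the counting error where a group has few counts. Levels are TMM-normalised CPM, and CPM per kb divides by the exon length of the count table. Ratios against groups at a few counts have exact 95% intervals for counting error only. Tables and figures used Python 3.11.15 with pandas 2.3.3 and matplotlib 3.10.9. The fits were checked on simulated counts. The BMP genes, the pathway and marker lists were chosen with earlier results of these data known. The named pathway genes were, per list and comparison, the called gene with the largest rise and that with the largest fall where the higher group had a mean of 10 CPM or more. The likeness was Pearson's r of log2 CPM (prior count 2) among genes that reached a mean of 10 CPM in some group. Alternatives were DESeq2 1.42.0, median-ratio size factors, no filter, fits of the compared groups alone, the adjusted p alone, a replicate block, each library left out and TPM. Leaving out mitochondrial-genome genes, from the test or from TPM, and log2 ratios in TPM were added after seeing the data. 2 genes that the naming rules select are not reported here. Proteomic data of the study were not analysed here.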

Additional observations from a re-analysis of the deposited data

Results flagged for a closer look

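The following log2 fold changes differed between mouse and human by the interaction test in edgeR (mouse change minus human change, adjusted p under 0.05, difference above 1 in size). From early to late gastruloids the differences were 7.32 for BMP2, 6.38 for ID1, 4.42 for ID2, 4.37 for BAMBI, 4.35 for NOG, 3.63 for ID3, 3.55 for MSX2 and 2.43 for MSX1. For BMP7 the difference was -1.60. From the source ESCs to early gastruloids the differences were 4.90 for BMP7, 2.32 for ID2, 2.02 for ID1, 1.17 for BAMBI, -4.84 for MSX1 and -4.86 for MSX2. In TPM over all genes the BAMBI difference of log2 ratios in this step was 0.28. All 9 of the first step were also called in each of 18 fits that left out 1 library.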

How the results depend on the processing

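DESeq2, median-ratio size factors, no low-count filter, the compared groups alone and the fit without mitochondrial-genome genes (the last added after seeing the data) kept each count of BMP genes called within 1.5 times its value. Leaving out 1 library each gave 4 to 8 BMP genes called from mouse naïve ESCs to EpiLCs and 4 to 7 from naïve ESCs to early gastruloids, the lowest in each without replicate 2 of naïve ESCs. With the adjusted p alone, the other pathway genes called were 38 rather than 22 from early to late RA-gastruloids and 24 rather than 14 from mouse naïve ESCs to early gastruloids. Values near 0 or from few counts changed sign when 1 library was left out, and the cause was not tested. From primed H9 to RUES2-GLR ESCs, MSX1 ranged from -0.16 (without replicate 1 of primed H9) to 0.54, with -0.00036 and -0.0033 without replicates 1 and 2 of late RA-gastruloids. From EpiLCs to early gastruloids, Msx2 was -0.32 without replicate 1 of EpiLCs and -0.60 without replicate 1 of early gastruloids, up to 5.32 without replicate 2 of EpiLCs, which left EpiLCs at 0. From mouse naïve ESCs to early gastruloids, Id2 was -0.086 without replicate 2 of early gastruloids and up to 0.74 otherwise. The species difference of BMP4 from early to late was -0.0084, -0.016 and -0.013 without replicate 1 of early RA-gastruloids, replicate 2 of late RA-gastruloids or replicate 2 of early mouse gastruloids, and up to 0.21 otherwise. That of NOG from source ESCs to the early stage was 1.70 without replicate 1 of mouse naïve ESCs, -3.76 and called without replicate 2, and called by DESeq2 (-2.51). The groups share replicate numbers 1 and 2, but nothing ties the numbers to a shared source. The correlations of replicate differences between groups were -0.112 to 0.0684 in human and -0.0483 to 0.00806 in mouse. A replicate block ended 1 call, Nog from EpiLCs to early gastruloids (-1.03, edgeR adjusted p = 0.0684), and no other. In TPM over all genes, the order of the human group levels matched that in CPM for 2 of 10 BMP genes, and over nuclear genes for 8, beside the mitochondrial share of RUES2-GLR ESCs. TPM over all genes flipped the sign of no called change within a species, but the log2 ratio was above 1 in size for 6 of 7 called changes from naïve to primed H9, 1 of 6 from primed H9 to RUES2-GLR ESCs, 5 of 7 into early RA-gastruloids and 6 of 8 from mouse naïve ESCs to EpiLCs. Of those 8 mouse changes, that of Id1 was also under 1 in size in CPM, at -0.91 as a ratio of group means. With 3681739 counts, replicate 2 of RUES2-GLR ESCs limits what can be seen under 0.956 CPM.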
